A study of Drosophila melanogaster with 9 samples.

Results

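The genes considered here build, license and fire replication origins in *Drosophila* follicle cells, or set whether a cell divides, endocycles or amplifies its chorion genes. They are 32 named genes, grouped by function and not by a threshold on measured values, although the choice was made with earlier results of these data known, of the 14077 genes to which the deposited transcripts were summed. All 32 were found in the annotation by symbol or, for *lat* (annotated as *Orc3*), by synonym, and all 32 passed the filter on low counts. The data are from TRAP-seq, in which a GFP-tagged ribosomal protein is expressed under a GAL4 driver and the mRNA bound to the tagged ribosomes is pulled down and sequenced. There were 3 groups with 3 replicates each. Fed SFCs (stretch follicle cells) were from PG150-Gal4>UAS-Rpl10A-GFP flies aged 3 days at 25 °C and given yeast paste for 2 days. Starved AFCs (all follicle cells) were from GR1-Gal4>UAS-Rpl10A-GFP flies kept for 16 to 20 h on apple juice agar with no yeast. Fed AFCs were from GR1-Gal4>UAS-Rpl10A-GFP flies fed as the SFC group was. All groups carried the tagged ribosomal protein, which the study's methods spell RpL10Ab. The labels give the tissue as abdomen. The input was not dissected ovaries but the thoraxes and abdomens of about 100 flies pooled for a library, and the study notes weak driver activity outside the ovary, of *PG150* in Malpighian tubules and of *GR1* in gut, so mRNA of other tissues can be present. *GR1-GAL4* is also active in SFCs, and *PG150-GAL4* also in centripetal cells, so each group mixes follicle cells of several kinds and stages, and the labels call the GR1 samples main body follicle cells. No starved SFC group was given, so fed SFCs and starved AFCs differ in both driver and food. The sources used here do not say whether replicates came from separate crosses, so p-values measure the spread between these libraries.

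Follicle cells first divide, then switch through Notch signaling to the endocycle, in which S phases follow each other without mitosis. At the end of that phase they stop genomic replication and re-replicate the chorion gene clusters from their own origins. Origins are bound by the origin recognition complex (ORC), loaded with the MCM helicase by Cdc6 and the Cdt1 protein Dup, and fired by Cyclin E/Cdk2 and the kinase Cdc7 with its partner Chiffon. The APC/C with its activator Fizzy-related (Fzr) removes the mitotic cyclins in endocycling cells, and E2F with its partner Dp drives the S phase genes. These proteins are controlled to a large part by degradation and phosphorylation, which TRAP-seq does not measure. In a bulk sample such as these, fewer cells of a type and less RNA per cell cannot be told apart.

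The libraries held 30551253 to 45910215 estimated reads, of which the members took 0.333% to 0.756%. Reads on rRNA genes made up 1.18% (fed AFC replicate 2) to 36.2% (SFC replicate 2) of a library. Fed AFC replicate 1 stood apart, with at least 10 reads on 13250 genes against 9273 to 10869 in the other 8. The labelled cell types were checked with marker lists. None of 11 SFC markers passed the test in SFCs against fed AFCs, and their summed level was, in CPM (reads scaled to library size by TMM), 853 to 1223 in SFCs and 813 to 930.1 in fed AFCs, while 5 of 8 main body eggshell genes were lower in SFCs, as 1.78% of all genes were. Muscle genes moved with the SFC group (5 of 10 higher beside 1.21% of all genes, summed level 855 to 1941 CPM against 333 to 673 in fed AFCs), and 6 of 9 midgut genes were lower in SFCs and 4 in starved AFCs than in fed AFCs, where 1.78% and 0.221% of all genes were. The study's 3 mid/late follicle cell markers summed to 7599 to 18970 CPM in SFCs and 6024 to 10980 in fed AFCs. The list did not rise as a whole, as 2 of the 3 had a negative log2 fold change in SFCs against fed AFCs. The median was -0.72 and the highest value 0.60, and 1 marker was called lower in SFCs, as 1.78% of all genes were. Early and dividing follicle cell markers were low, at 18.8 to 41.2 CPM in SFCs, 14.9 to 22.9 in starved AFCs and 14.9 to 37.3 in fed AFCs. Fat body genes summed to 784 to 1860, 186 to 524.5 and 261 to 1024 CPM in these groups. Of 15 germline markers, 14 were counted and none was at 0 in a group. They summed to 1545 to 2582 CPM in SFCs, 1089 to 1438 in starved AFCs and 1139 to 1865 in fed AFCs. In SFCs 1 of them, *bcd*, was higher than in either AFC group (adjusted p = 0.0188 and 0.0091). So were 1.21% of all genes against fed AFCs and 135 of 10870 against starved AFCs. As a list, 13 of the 14 had a positive log2 fold change in SFCs against each AFC group. The medians were 0.50 against fed and 0.65 against starved AFCs, beside -0.10 and -0.02 for all genes. Nurse cells of the germline also endocycle and carry cell cycle mRNA, and the part of other cell types in the results below was not tested.

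All 32 genes were expressed in every library, and most were above the typical gene. Levels were compared between genes only as CPM per kb of effective transcript length. On this scale, 29 members in fed SFCs and 28 in each AFC group were above the median of all genes tested. *CycB*, the mitotic B-type cyclin, had the highest level in each group, at 963 ± 149 CPM per kb in fed SFCs, 688 ± 138 in starved AFCs and 784 ± 206 in fed AFCs (mean ± SD, n = 3, as everywhere below). *geminin*, the inhibitor of Dup, and *PCNA*, the sliding clamp of DNA polymerase, followed. Their means were 341 ± 4.92 and 334 ± 25.3 CPM per kb in fed SFCs, 332 ± 29.01 and 408 ± 77.9 in starved AFCs, and 339 ± 95.6 and 333 ± 79.95 in fed AFCs, so the order of this pair was within its spread. *CycA* was next in each group and *E2f2*, the repressor E2F, after it. At the low end were *SuUR*, whose protein slows replication forks in heterochromatin (3.93 ± 1.23, 1.86 ± 0.672 and 4.01 ± 2.98 CPM per kb in fed SFCs, starved AFCs and fed AFCs), *chif* (7.46 ± 5.07, 4.54 ± 2.53 and 3.58 ± 1.79), *E2f1*, the activator E2F, and *dap*, the p21-type inhibitor of Cyclin E/Cdk2. The genes of the ORC and the MCM helicase lay close together in the middle of the range.

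**Figure D1:**
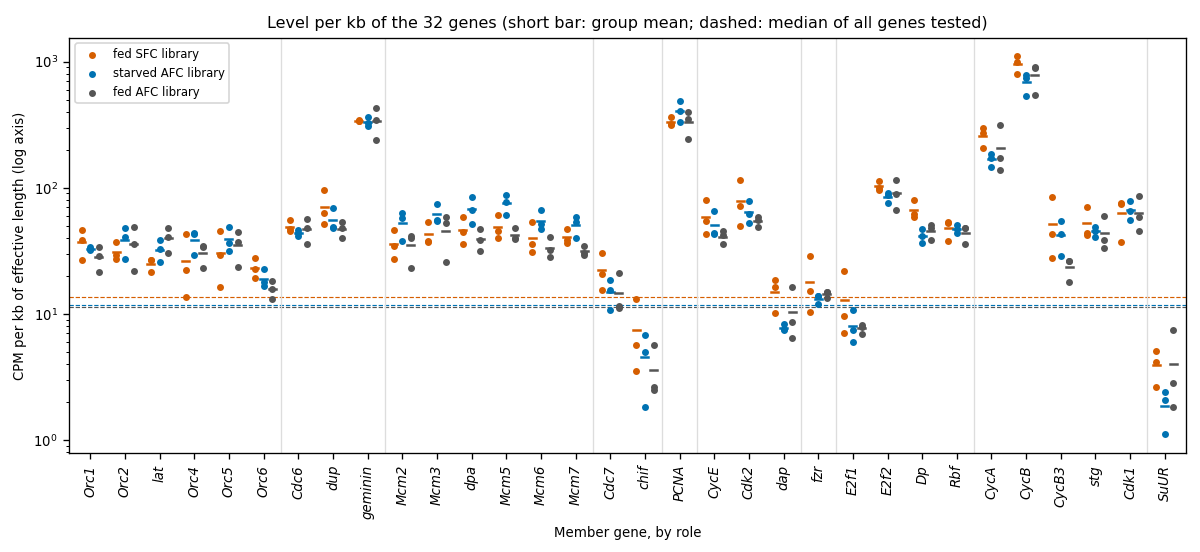
Level of each of the 32 genes in CPM per kb of effective transcript length (log axis) in the 3 libraries of each group, with fed SFCs, starved AFCs and fed AFCs from left to right within a gene. Short bars are group means and dashed lines the median of all genes tested in each group. *CycB* is highest in each group, and *SuUR* and *chif* are lowest.

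By edgeR's quasi-likelihood test none of the 32 genes had, in any comparison, a p below 0.05 once adjusted over 10870 genes after Benjamini and Hochberg. The share of all genes that passed was 2.99% in fed SFCs against fed AFCs, 0.221% in starved against fed AFCs and 2.22% in fed SFCs against starved AFCs. Without adjustment, 2 members were higher and 1 lower in fed SFCs than in fed AFCs at p below 0.05, as 9.06% and 10.6% of all genes were. In starved against fed AFCs, 5 were higher and 1 lower, beside 2.11% and 2.92% of all genes. Between fed SFCs and starved AFCs, 2 were higher and 2 lower, beside 9.21% and 8.73%. With DESeq2, *lat* and *CycB3* were called in fed SFCs against fed AFCs, *Dp* in fed SFCs against starved AFCs, and no member in starved against fed AFCs, where it called 11.6%, 9.67% and 1.01% of the genes with an adjusted p. Length offsets in DESeq2 left these member calls as they were (11.4%, 8.58% and 1.05% of genes). The libraries of 2 groups did not overlap for 5 members in fed SFCs against fed AFCs (4 higher, where 9.12% of all genes were, and 1 lower, where 11.8% were), for 6 in starved against fed AFCs (5 higher beside 6.17% and 1 lower beside 5.91%), and for 5 in fed SFCs against starved AFCs (4 higher beside 11.2% and 1 lower beside 13.5%).

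The 95% interval of a member's log2 fold change (LFC) reached 0.46 to 1.15 to either side of its value in fed SFCs against fed AFCs, with a median of 0.63. It lay wholly within 2-fold for 20 of the 32 genes in that comparison, for 20 in starved against fed AFCs and for 14 in fed SFCs against starved AFCs, against 32.2%, 45.5% and 33.6% of all genes tested. The median LFC of the members was 0.21, 0.14 and 0.17 in the same order of comparisons, and that of all genes tested -0.10, -0.09 and -0.02. These medians moved with single libraries. In fed SFCs against fed AFCs the members' median was 0.08 without fed AFC replicate 1 and 0.40 without SFC replicate 2. Against starved AFCs it was -0.04 without SFC replicate 3. The members' median in starved against fed AFCs was -0.01 without fed AFC replicate 1, the replicate that was the lowest of its group for 23 of the 32 genes and for 4452 of the 10870 genes tested.

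**Figure D2:**
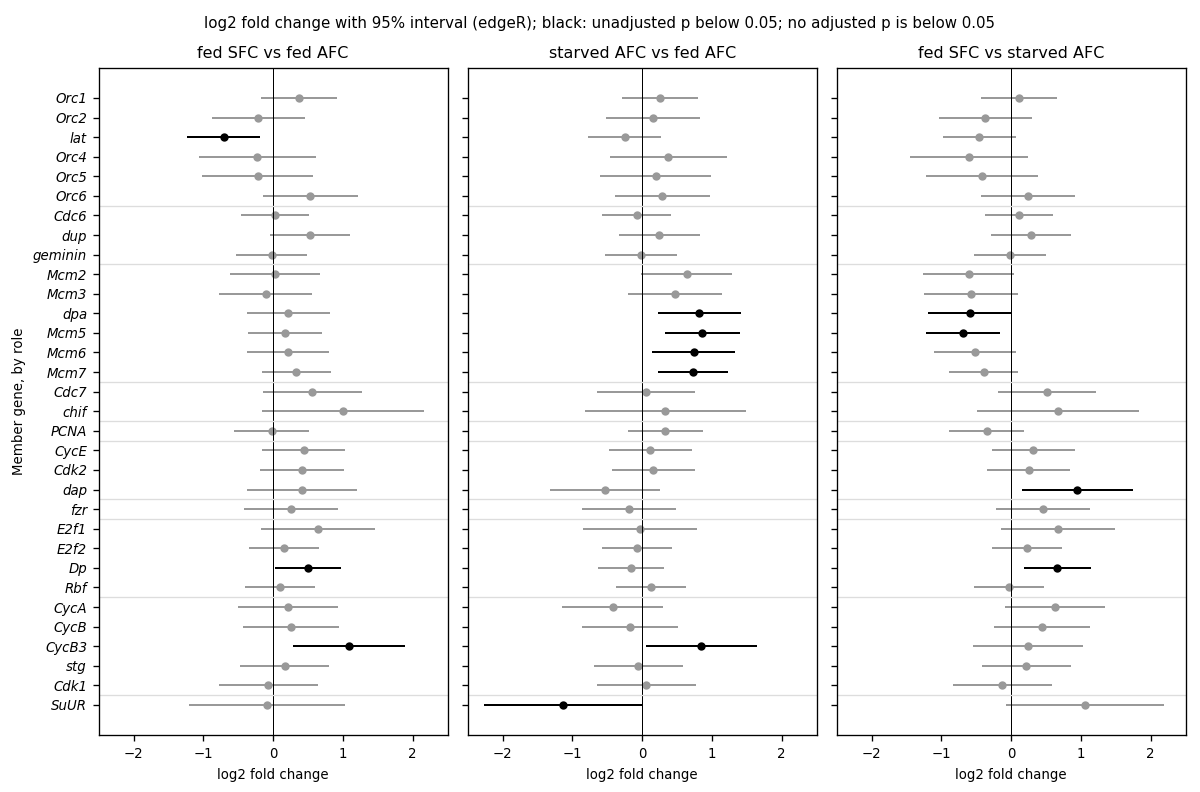
LFC of each member with its 95% interval (edgeR) in fed SFCs against fed AFCs, starved against fed AFCs and fed SFCs against starved AFCs. Black marks an unadjusted p below 0.05. The black values at the right in the middle panel are *dpa*, *Mcm5*, *Mcm6*, *Mcm7* and *CycB3*, and no adjusted p is below 0.05.

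In starved against fed AFCs, the MCM helicase genes shared a sign. The 6 subunits are loaded around DNA as a double ring at licensed origins and unwind it once the origin fires. All 6 genes had a higher mean in starved than in fed AFCs, with LFCs of 0.47 to 0.86 and a median of 0.73. For 4 of them the 3 starved libraries lay above the 3 fed AFC libraries, as they did for 6.17% of all genes. *Mcm5* (chromosome 3R, 10788524 to 10791150 of BDGP6.54) had 130.0, 78.3 and 89.98 CPM in fed SFCs, 166, 130.5 and 185 CPM in starved AFCs and 84.7, 80.7 and 99.8 CPM in fed AFCs. Every starved library was above every library of the other groups. Its LFC was 0.86 (SE 0.24, unadjusted p = 0.00368, adjusted p = 0.404) in starved against fed AFCs, and -0.69 (SE 0.24, unadjusted p = 0.0137, adjusted p = 0.164) in fed SFCs against starved AFCs. *dpa*, which encodes the Mcm4 subunit (chromosome 2R, 7496702 to 7500145), had 142, 79.05 and 101 CPM in fed SFCs, 162, 127 and 199 CPM in starved AFCs and 76.4, 90.8 and 110.1 CPM in fed AFCs. The starved values were above the fed AFC values but overlapped those of SFCs, and the LFC of starved against fed AFCs was 0.82 (SE 0.27, unadjusted p = 0.00961, adjusted p = 0.629).

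*Mcm7* (chromosome 3L, 8891596 to 8894310) had 98.7, 72.3 and 69.97 CPM in fed SFCs, 124, 83.3 and 109 CPM in starved AFCs and 64.03, 58.5 and 68.97 CPM in fed AFCs. Both other groups lay above fed AFCs, with an LFC of 0.73 (SE 0.22, unadjusted p = 0.00662, adjusted p = 0.546) in starved AFCs and 0.33 (SE 0.22, unadjusted p = 0.16, adjusted p = 0.424) in fed SFCs. *Mcm6* (chromosome X, 6674387 to 6677176) had 128, 66.8 and 78.5 CPM in fed SFCs, 125, 112 and 154 CPM in starved AFCs and 67.7, 73.99 and 93.4 CPM in fed AFCs, so that SFC replicate 1 was as high as the starved libraries while the fed AFC values were all lower. Its LFC in starved against fed AFCs was 0.74 (SE 0.27, unadjusted p = 0.0164, adjusted p = 0.752). *Mcm2* (chromosome 3R, 8264970 to 8267924) had 116, 79.3 and 64.8 CPM in fed SFCs, 159, 95.6 and 143 CPM in starved AFCs and 58.97, 101 and 96.5 CPM in fed AFCs, and *Mcm3* (chromosome X, 5323855 to 5326738) had 124, 80.9 and 81.2 CPM in fed SFCs, 177, 128 and 123 CPM in starved AFCs and 60.1, 132 and 116 CPM in fed AFCs. In both genes the starved and fed AFC values overlapped, fed AFC replicate 1 was the lowest library, and the LFC was 0.64 (adjusted p = 0.982) and 0.47 (adjusted p = 0.982). For each of the 6 genes the 95% interval of starved against fed AFCs reached past 2-fold on the upper side, and for *dpa*, *Mcm5*, *Mcm6* and *Mcm7* it did not reach 0.

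The 6 MCM genes kept positive LFCs in starved against fed AFCs under all 20 alternatives, which include another scaling, length offsets, DESeq2, limma-voom and each library left out in turn, and their median ranged between 0.64 and 0.86. Without fed AFC replicate 1 it was 0.67. No alternative gave any of them an adjusted p below 0.05, and the smallest was 0.058 for *Mcm5* with DESeq2. In fed SFCs against starved AFCs, all 6 LFCs were negative (-0.69 to -0.40) and were so under the 20 alternatives, with a median between -0.82 and -0.41. Both comparisons use the starved libraries. Fed SFCs and fed AFCs lay closer together, with LFCs of -0.11 to 0.33, and for all 6 genes the interval of this difference was within 2-fold. These LFCs were positive for 5 of the 6 genes, but for only 1 when SFC replicate 1 was left out, with a median of -0.08.

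The 6 ORC genes had smaller LFCs in starved against fed AFCs, of -0.25 to 0.38, and none had groups that did not overlap there. The complex marks origins, and in follicle cells it also sits at the amplifying chorion clusters. In fed SFCs against fed AFCs the LFCs were -0.71 to 0.53. *lat*, which encodes the Orc3 subunit (chromosome 2R, 13202728 to 13206547), had 54.5, 49.6 and 40.2 CPM in fed SFCs, 67.3, 52.5 and 78.1 CPM in starved AFCs and 62.9, 79.6 and 93.4 CPM in fed AFCs. The SFC libraries were all below the fed AFC libraries, and the LFC was -0.71 (SE 0.23, unadjusted p = 0.0102, adjusted p = 0.13). DESeq2 called it, with an LFC of -0.70 (adjusted p = 0.0352), and leaving out single libraries moved edgeR's adjusted p between 0.0674 and 0.459. *Orc6*, the smallest subunit (chromosome 2R, 9845458 to 9846485), had the opposite order, with 19.99, 15.4 and 13.1 CPM in fed SFCs, 12.8, 11.8 and 16.4 CPM in starved AFCs and 9.44, 12.9 and 11.2 CPM in fed AFCs. Its LFC was 0.53 (SE 0.31, unadjusted p = 0.106, adjusted p = 0.354) in fed SFCs against fed AFCs, where the groups did not overlap.

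*Orc1*, the subunit whose level changes through the cell cycle, had 106, 66.5 and 117 CPM in fed SFCs, 89.1, 89.8 and 87.9 CPM in starved AFCs and 58.3, 90.8 and 74.8 CPM in fed AFCs, with overlapping groups and LFCs of 0.37 (adjusted p = 0.423) in fed SFCs and 0.25 (adjusted p = 0.982) in starved AFCs against fed AFCs. The 3 starved libraries of *Orc1* were nearly equal, while the SFC values were spread widely. *Orc2*, *Orc4* and *Orc5* had LFCs of -0.21, -0.23 and -0.22 in fed SFCs and of 0.16, 0.38 and 0.19 in starved AFCs against fed AFCs, none with an unadjusted p below 0.05. *Orc4* and *Orc5* varied within the SFC group, where replicate 2 was low. *Orc4* was at 54.8, 15.6 and 25.6 CPM there and *Orc5* at 62.9, 21.1 and 38.02.

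The ratio of the 2 complexes was taken within each library, as the mean level per kb of the MCM genes over that of the ORC genes, which leaves library scaling out. It was 1.47, 1.60 and 1.37 in fed SFCs, 1.93, 1.78 and 1.72 in starved AFCs and 1.34, 1.08 and 1.32 in fed AFCs. The starved libraries were above all others, and the fed groups did not overlap either. No test was run on this ratio, as it was made from members after their values were seen. Within a library, the 6 MCM genes differed from each other by 1.29-fold to 2.02-fold per kb, with *Mcm5* highest in 7 of the 9 libraries and *Mcm3* in fed AFC replicates 2 and 3.

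**Figure D3:**
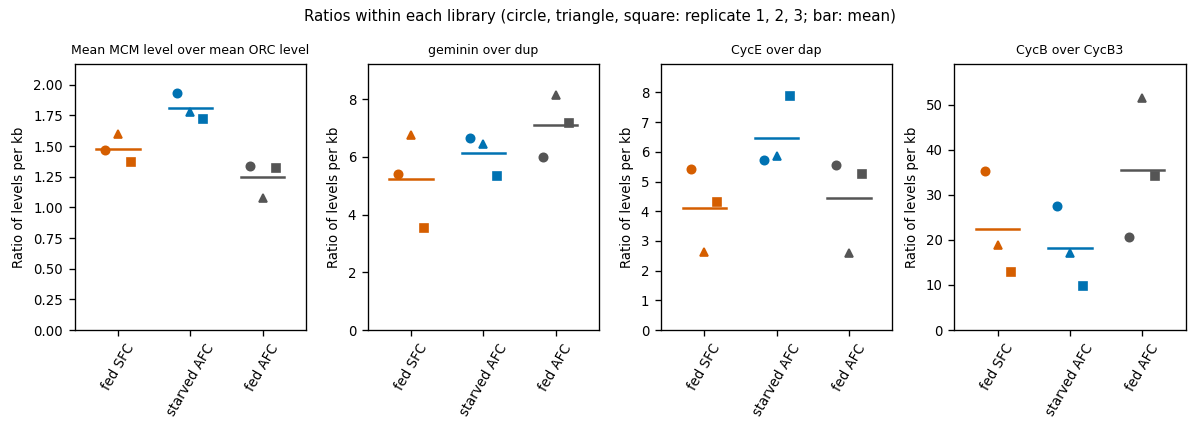
Ratios of levels per kb within each library for the mean of the MCM genes over the mean of the ORC genes, *geminin* over *dup*, *CycE* over *dap*, and *CycB* over *CycB3*, by group, with bars for means. In the first panel the starved libraries, at 1.72 to 1.93, sit above all others. In the third panel they do so narrowly, on lengths that follow Salmon's division of *CycE* reads and not in CPM. In the remaining panels the groups overlap.

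None of the licensing and firing genes passed the test. *Cdc6*, which loads the helicase, had 119, 88.03 and 93.4 CPM in fed SFCs, 94.2, 88.5 and 95.8 CPM in starved AFCs and 76.4, 119 and 98.9 CPM in fed AFCs, and all of its LFCs were between -0.08 and 0.11. *geminin* had LFCs near 0, with 226, 212 and 213 CPM in fed SFCs, 217, 206.6 and 232 CPM in starved AFCs and 161, 278 and 222 CPM in fed AFCs. Its 95% interval was -0.53 to 0.48 in fed SFCs and -0.51 to 0.49 in starved AFCs against fed AFCs, so a change of 2-fold lay outside it in both. *dup*, the Cdt1 gene, which is needed for chorion amplification (chromosome 2R, 15376619 to 15380988), had 153, 114 and 216 CPM in fed SFCs, 119, 116 and 163 CPM in starved AFCs and 97.6, 125 and 112 CPM in fed AFCs. SFC replicate 3 was the highest library, the groups overlapped, and the LFC of fed SFCs against fed AFCs was 0.53 (SE 0.26, unadjusted p = 0.0631, adjusted p = 0.282). The ratio of *geminin* to *dup* per kb was 5.40, 6.77 and 3.53 in fed SFCs, 6.67, 6.45 and 5.33 in starved AFCs and 6, 8.15 and 7.19 in fed AFCs, with overlapping ranges.

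*chif*, the Dbf4-like partner of Cdc7, which is also required for chorion amplification, had 22.1, 32.9 and 77.3 CPM in fed SFCs, 11.3, 41.3 and 30.5 CPM in starved AFCs and 34.6, 16.4 and 14.98 CPM in fed AFCs. SFC replicate 3 and starved replicate 2 were high and starved replicate 1 low, and the LFC of fed SFCs against fed AFCs was 1.001 (SE 0.53, unadjusted p = 0.0821, adjusted p = 0.317), with an interval of -0.15 to 2.15. Its exons overlap *Hyls1* on the same strand over 19.45% of their length, so reads there can belong to either gene. *Cdc7* had LFCs of 0.56 (adjusted p = 0.35) in fed SFCs and 0.05 (adjusted p = 0.995) in starved AFCs against fed AFCs. *PCNA* had 259, 203.1 and 211 CPM in fed SFCs, 291, 235 and 331 CPM in starved AFCs and 175, 270.2 and 237 CPM in fed AFCs, with LFCs of -0.02 and 0.33 against fed AFCs, and all of its intervals were within 2-fold.

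The Cyclin E module was examined for both its levels and its transcripts. *CycE* (chromosome 2L, 15727581 to 15748150 of BDGP6.54, minus strand) had 188, 135 and 259.9 CPM in fed SFCs, 141, 135 and 191 CPM in starved AFCs and 119, 162 and 149 CPM in fed AFCs. The groups overlapped, and the LFC was 0.44 (SE 0.27, unadjusted p = 0.126, adjusted p = 0.384) in fed SFCs and 0.12 (SE 0.27, unadjusted p = 0.664, adjusted p = 0.989) in starved AFCs against fed AFCs. Its kinase *Cdk2* had LFCs of 0.41 (adjusted p = 0.415) and 0.16 (adjusted p = 0.984) in the same comparisons. Over 43.93% of its exonic length *Cdk2* overlaps *CG17267* on the other strand, and the library kit does not mark strand, so its level is uncertain. The inhibitor *dap* (chromosome 2R, 9712321 to 9716256) had 26.4, 38.9 and 45.2 CPM in fed SFCs, 19.1, 17.96 and 20.1 CPM in starved AFCs and 15.8, 45.3 and 21.6 CPM in fed AFCs. The SFC libraries were all above the starved libraries, which had nearly equal values, and fed AFC replicate 2 was as high as the highest SFC library. The LFC of fed SFCs against starved AFCs was 0.95 (SE 0.36, unadjusted p = 0.0207, adjusted p = 0.193). The LFC of starved against fed AFCs was -0.53 (adjusted p = 0.982) and was 0.06 without fed AFC replicate 2, so its sign rested on that library. The ratio of *CycE* to *dap* per kb was 5.41, 2.62 and 4.32 in fed SFCs, 5.71, 5.85 and 7.88 in starved AFCs and 5.55, 2.59 and 5.24 in fed AFCs, so the starved libraries were above all others, by a narrow margin over fed AFC replicate 1. That margin rests on effective lengths, which for *CycE* follow Salmon's division of its reads between transcripts. In CPM it did not hold, as *CycE* and *dap* were at 119 and 15.8 in fed AFC replicate 1 and at 141 and 19.1 in starved replicate 1.

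While the groups overlapped in the total of *CycE*, they did not in how Salmon divided its reads between transcripts in starved and fed cells. This was noticed when the transcript shares of all 18 members with more than 1 transcript were compared, and the tests on transcripts were added after the data were seen. Of the gene's 6 annotated transcripts, CycE-RE starts at the upstream end of the gene (first exon 15747986 to 15748150) and CycE-RF at an exon further downstream (15746455 to 15746610). CycE-RE encodes 709 codons and CycE-RF, which starts translation in its own first exon, 712. At the other end, CycE-RB, CycE-RD and CycE-RE extend further, over 15727581 to 15727783, than CycE-RA, CycE-RC and CycE-RF, in the 3′ UTR. CycE-RE took 46.5, 70.2 and 77.2% of the gene's reads in fed SFCs, 15.3, 11.3 and 9.38% in starved AFCs and 59.7, 95.01 and 70.1% in fed AFCs. CycE-RF took 35.7, 0 and 16.6%, 70.1, 78.8 and 85.5% and 19.9, 3.75 and 24.6% in the same groups. Thus CycE-RF led in each starved library and CycE-RE in each library of both fed groups.

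The 3 transcripts of *CycE* with the long 3′ end together took 46.8, 70.2 and 77.2% in fed SFCs, 15.3, 12.7 and 9.38% in starved AFCs and 70.01, 95.6 and 70.1% in fed AFCs. Their mean share was 12.5 ± 2.98% in starved against 78.6 ± 14.7% in fed AFCs (two-sided exact permutation p = 0.1, the smallest that 3 against 3 can give). The gene was singled out because its shares did not overlap between these groups, which fixes this p in advance, so no conclusion is drawn from it. In edgeR's test over 18340 transcripts none of the 54 tested transcripts of members was called in fed SFCs against fed AFCs, starved against fed AFCs or fed SFCs against starved AFCs, where 0.185%, 0.0218% and 0.06% of all transcripts were. CycE-RE had an LFC of -2.60 (SE 0.43, unadjusted p = 0.000262, adjusted p = 0.31) in starved against fed AFCs and of 2.82 (SE 0.43, unadjusted p = 0.000158, adjusted p = 0.101) in fed SFCs against starved AFCs. DESeq2 called CycE-RE in both (adjusted p = 8.14e-07 and 2.02e-08), and limma-voom in neither (adjusted p = 0.217 and 0.0964). The share of all transcripts that DESeq2 called is not given here. CycE-RF had an LFC of 2.46 (SE 1.57, unadjusted p = 0.154, adjusted p = 1) in starved against fed AFCs, and it was at 0 reads in SFC replicate 2. With single libraries left out, the LFC of CycE-RE in starved against fed AFCs stayed between -2.81 and -2.23. These shares are Salmon's estimates for transcripts that share exons, and their estimation error was not given in the sources used here.

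*CycA*, the cyclin of G2 and mitosis, also had transcript shares that did not overlap between starved and fed AFCs. CycA-RC extends 364 bases further (11826719 to 11827082 on chromosome 3L) than CycA-RA. CycA-RC took 45.8, 100.0 and 77.5% of the gene's reads in fed SFCs, 72.2, 46.96 and 60.4% in starved AFCs and 76.5, 99.4 and 98.7% in fed AFCs. The starved values were below the fed AFC values, and the SFC libraries overlapped both. The mean share was 59.8 ± 12.6% in starved and 91.5 ± 13.04% in fed AFCs (two-sided exact permutation p = 0.1, again the smallest possible). This p too was fixed by the choice of a share whose groups did not overlap. The LFC of CycA-RC was -1.10 (SE 0.43, unadjusted p = 0.0332, adjusted p = 1). In 14 of the 18 members with several transcripts, 1 transcript led in all 9 libraries, and the exceptions were *Cdk2*, *CycA*, *CycE* and *fzr*. Shares of Cdk2-RC (16.86 to 23.61% in starved against 24.74 to 33.0% in fed AFCs) and CycB-RE (11.55 to 15.89% against 4.16 to 10.42%) did not overlap either. Nor did those of CycB-RE in fed SFCs and starved AFCs. The *stg* transcripts set fed SFCs apart from fed and starved AFCs, with medians 0.35 and 0.91 points apart. The 18 members with several transcripts had 49 transcripts in all, looked at in 3 comparisons. Groups of 3 and 3 libraries that do not differ fail to overlap with a probability of 0.1. No conclusion is therefore drawn from shares that did not overlap. How many genes outside the members had such shares was not counted.

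**Figure D4:**
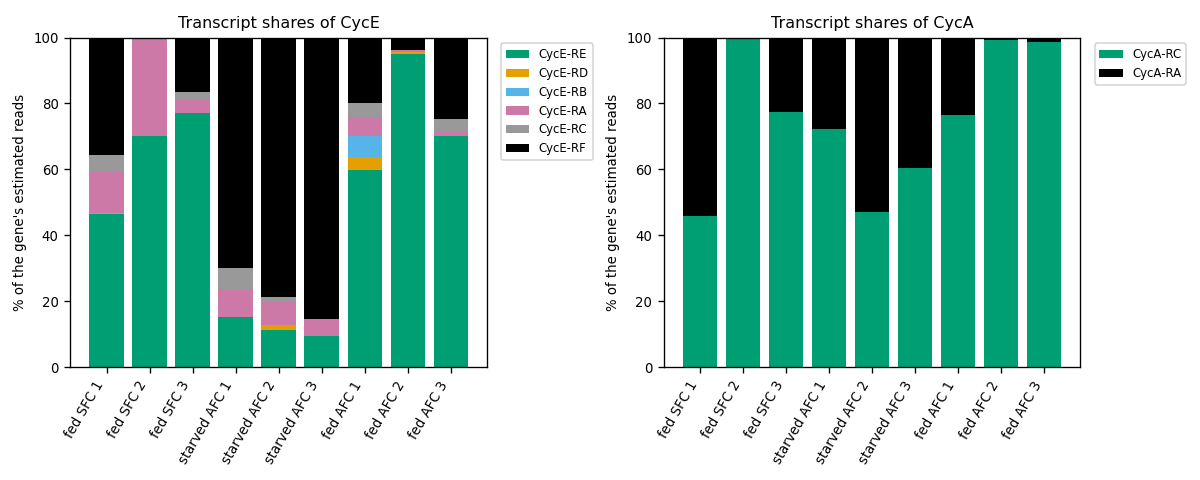
Share of the estimated reads of *CycE* and *CycA* that Salmon gave to each annotated transcript, in % by library. The CycE-RF share is 70.1% to 85.5% in the starved libraries and at most 35.7% in the others, and the CycA-RC share is lower in each starved library than in each fed AFC library.

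Of the E2F genes, *Dp* stood out. It encodes the partner that E2f1 and E2f2 both need to bind DNA (chromosome 2R, 13222433 to 13228202), and had 133, 173 and 139.8 CPM in fed SFCs, 83.2, 92.8 and 106 CPM in starved AFCs and 86.95, 115 and 113 CPM in fed AFCs. All 3 SFC libraries lay above all AFC libraries of both groups. The LFC was 0.50 (SE 0.21, unadjusted p = 0.0357, adjusted p = 0.222) in fed SFCs against fed AFCs and 0.66 (SE 0.21, unadjusted p = 0.0087, adjusted p = 0.136) in fed SFCs against starved AFCs. Only the second was called by DESeq2 (LFC 0.67, adjusted p = 0.0157). Without SFC replicate 2, the library with the most rRNA, the LFC against starved AFCs was 0.58. *E2f1* had 30.3, 35.8 and 86.2 CPM in fed SFCs, 24.8, 42.9 and 27.8 CPM in starved AFCs and 32.8, 37.1 and 27.9 CPM in fed AFCs, with SFC replicate 3 far above the rest and an LFC of 0.64 (SE 0.37, unadjusted p = 0.108, adjusted p = 0.358) in fed SFCs against fed AFCs. *E2f2* and *Rbf*, the pocket protein that holds E2F inactive, had LFCs of 0.15 and 0.10 in fed SFCs and -0.07 and 0.12 in starved AFCs against fed AFCs, and all of their intervals were within 2-fold. Of the exonic length of *E2f2*, 19.93% overlaps *Mpp6* on the other strand.

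The mitotic genes were expressed in all 3 groups, *CycB* and *CycA* at high levels. *CycB3*, a B-type cyclin of late mitosis (chromosome 3R, 24867934 to 24870816), had 72.3, 101 and 205.4 CPM in fed SFCs, 74.03, 111 and 136 CPM in starved AFCs and 67.9, 45.5 and 64.6 CPM in fed AFCs. Fed AFCs were the lowest group, with no overlap with either of the others. The LFC was 1.09 (SE 0.36, unadjusted p = 0.0104, adjusted p = 0.131) in fed SFCs and 0.85 (SE 0.36, unadjusted p = 0.0355, adjusted p = 0.938) in starved AFCs against fed AFCs. DESeq2 called the first (adjusted p = 0.0411), but without SFC replicate 3 the LFC was 0.55 (adjusted p = 0.411). *CycA* had 769.9, 566 and 728 CPM in fed SFCs, 466, 478 and 388 CPM in starved AFCs and 372, 929 and 485 CPM in fed AFCs. The SFC libraries were all above the starved libraries, fed AFC replicate 2 was the highest of all, and the LFC of fed SFCs against starved AFCs was 0.63 (SE 0.33, unadjusted p = 0.0749, adjusted p = 0.331). *CycB* had 2281, 1673 and 2323 CPM in fed SFCs, 1798, 1672 and 1168 CPM in starved AFCs and 1238, 2055 and 1957 CPM in fed AFCs, with overlapping groups and LFCs of 0.26 (adjusted p = 0.66) in fed SFCs and -0.18 (adjusted p = 0.984) in starved AFCs against fed AFCs.

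*stg*, the Cdc25 phosphatase that starts mitosis and is shut off at the switch to the endocycle, had 106, 98.4 and 165 CPM in fed SFCs, 101, 108 and 109 CPM in starved AFCs and 79.5, 159 and 91.6 CPM in fed AFCs, and *Cdk1*, its target, had 67.95, 32.9 and 65.98 CPM in fed SFCs, 58.8, 49.8 and 73.7 CPM in starved AFCs and 40.9, 80.99 and 53.03 CPM in fed AFCs. Neither had an LFC outside -0.13 to 0.22 in any comparison, and all of their intervals were within 2-fold. *fzr*, the APC/C activator of endocycling cells, had 26.1, 32.8 and 65.3 CPM in fed SFCs, 28.5, 32.1 and 30.3 CPM in starved AFCs and 34.7, 34.7 and 34.6 CPM in fed AFCs. The fed AFC libraries were nearly equal and the starved libraries lay below them, but the LFC of starved against fed AFCs was only -0.19 (adjusted p = 0.984), and SFC replicate 3 was the highest of all libraries. *SuUR* (chromosome 3L, 11064991 to 11069025) had 9.64, 14.3 and 17.6 CPM in fed SFCs, 7.503, 8.47 and 4.02 CPM in starved AFCs and 10.1, 27.4 and 6.50 CPM in fed AFCs. The LFC of starved against fed AFCs was -1.14 (SE 0.52, unadjusted p = 0.0468, adjusted p = 0.968), but it was -0.28 without fed AFC replicate 2, the highest library. Against starved AFCs the SFC libraries were all higher, with an LFC of 1.05 (SE 0.52, unadjusted p = 0.0632, adjusted p = 0.309).

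**Figure D5:**
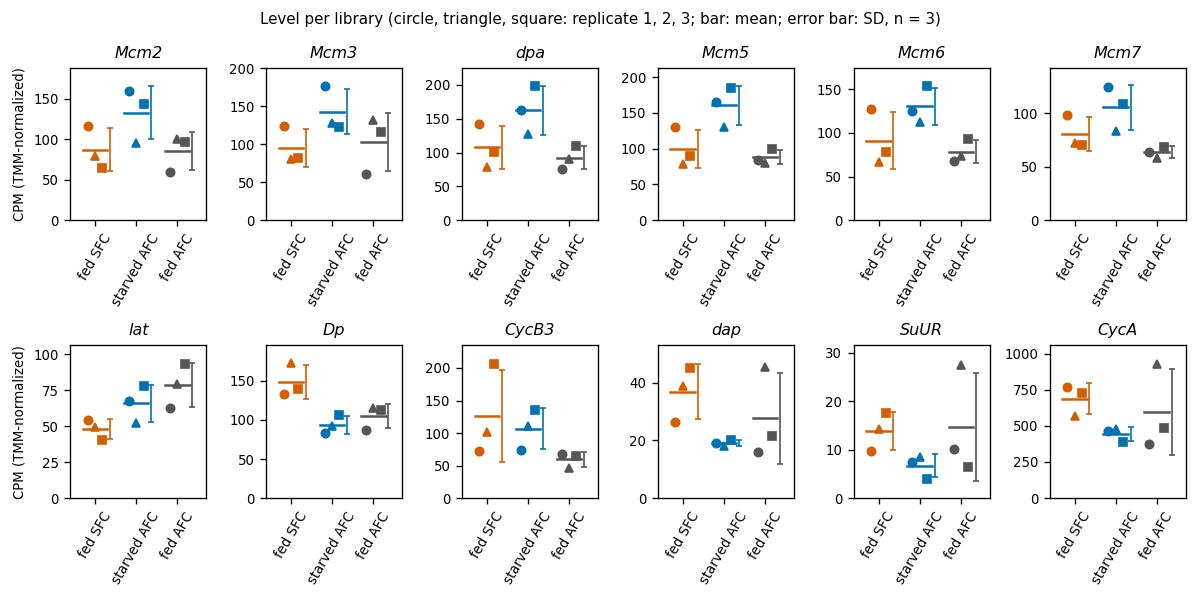
TMM-normalized CPM of the 6 MCM genes, *lat*, *Dp*, *CycB3*, *dap*, *SuUR* and *CycA* in each library (symbols for replicates 1, 2 and 3), with the mean and SD of each group (n = 3). The starved values of *dpa*, *Mcm5*, *Mcm6* and *Mcm7* lie above those of fed AFCs, and the SFC values of *Dp* above those of both AFC groups.

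Other genes of the replication and cell cycle machinery were read from lists. Of 36 counted genes of the replisome and DNA synthesis, none passed edgeR's test in any comparison. DESeq2 called 1 in fed SFCs against fed AFCs, 0 in starved against fed AFCs and 1 in fed SFCs against starved AFCs. It called 11.6%, 1.01% and 9.67% of the genes with an adjusted p in these comparisons. In starved against fed AFCs, 28 had a positive LFC, as 4464 of the 10870 genes tested did. Starved values were wholly above the fed ones for 8 (6.17% of all genes) and wholly below for 0 (5.91%), with a median LFC of 0.25 beside -0.09 for all genes. *RnrS*, the small subunit of ribonucleotide reductase, one of the list's 3 most abundant genes, had 449.7, 224 and 354 CPM in fed SFCs, 346, 329.8 and 395 in starved AFCs and 226, 254 and 279 in fed AFCs. Its LFC in starved against fed AFCs was 0.50 (SE 0.27, adjusted p = 0.982). *RPA3*, a subunit of the single-strand binding complex, and *Slbp*, which binds histone mRNA, had negative LFCs in starved against fed AFCs, of -0.185 (adjusted p = 0.984) and -0.431 (adjusted p = 0.982), the latter the lowest of the list. In fed SFCs against fed AFCs their LFCs were -0.95 (adjusted p = 0.16) and -0.60 (adjusted p = 0.31). None of 15 genes of the replication checkpoint and break repair passed with edgeR, DESeq2 or limma-voom, and *lok*, *grp* and *p53*, the kinases Chk2 and Chk1 and their effector, had LFCs of -0.04, 0.08 and 0.03 in starved against fed AFCs.

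Of 32 mitosis genes outside the members, 1 passed the test in fed SFCs against fed AFCs. *asp*, which focuses spindle poles, was higher in fed SFCs, as 1.21% of all genes were, at 174, 79.8 and 147 CPM against 63.3, 63.8 and 52.6 CPM in fed AFCs, with an LFC of 1.16 (SE 0.27, adjusted p = 0.0413). A further 10 of the list had an unadjusted p below 0.05 in this comparison, all of them higher in SFCs, where 9.06% of all genes were, and *borr*, of the chromosomal passenger complex, was among them (LFC 0.55, adjusted p = 0.182). None was called in starved against fed AFCs or in fed SFCs against starved AFCs, where 5 and 6 were higher at an unadjusted p below 0.05 and none lower, beside 2.11% and 9.21% of all genes. *feo*, a microtubule bundler of the midzone, had an LFC of -0.22 in fed SFCs against fed AFCs. Of 8 genes of the MuvB and Myb complex, which acts at the chorion amplification origins, *mip120* was higher in fed SFCs, at 57.6, 54.2 and 58.5 CPM against 30.9, 34.6 and 22.8 CPM in fed AFCs, with an LFC of 0.95 (SE 0.22, adjusted p = 0.0394), and *lin-52* and *Caf1-55* did not pass. With single libraries left out, the adjusted p ranged over 0.018 to 0.228 for *asp*, which stayed below 0.05 only without SFC replicate 2, and over 0.0499 to 0.255 for *mip120*, which did so only without fed AFC replicate 2. Both calls were also lost with only the 2 groups fitted (adjusted p = 0.079 for *asp* and 0.0949 for *mip120*), and that of *mip120* with SFC replicate 2 and fed AFC replicate 1 left out together (adjusted p = 0.0655). The part of the germline in these values, whose summed markers are given above, was not tested.

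Genes of cyclin D and the ubiquitin ligases of the endocycle (12 counted) gave no call with edgeR. Nor did genes of the switch from mitosis to endocycle and amplification (8 counted). DESeq2 called 2 ligase genes in fed SFCs against fed AFCs, where it called 11.6% of the genes with an adjusted p. In fed SFCs against starved AFCs it called 2 ligase genes and 1 switch gene, beside 9.67%. *Roc1a*, *SkpA* and *rca1*, the first 2 of them ligase subunits and the third an APC/C inhibitor, had LFCs of -1.07 (adjusted p = 0.0625 with edgeR, 0.000664 with DESeq2 and 0.0373 with limma-voom), -0.55 and 0.32 in fed SFCs against fed AFCs. *ttk*, *N* and *EcR*, which encode Tramtrack, the Notch receptor and the ecdysone receptor, had LFCs of 0.86 (adjusted p = 0.0922 with edgeR and 0.021 with DESeq2), 1.03 and 0.73 in fed SFCs against starved AFCs. Against fed AFCs these genes had LFCs of 0.46, 1.08 and 0.06 in fed SFCs and -0.40, 0.05 and -0.67 in starved AFCs. In starved against fed AFCs, 7 of the 8 switch genes had a negative LFC, as 6406 of the 10870 genes tested did. Starved values were wholly below the fed ones for 3 of them (5.91% of all genes), with a median LFC of -0.69 beside -0.09 for all genes. Among 9 chorion genes in the amplified clusters, 5 were lower in fed SFCs and 6 in starved AFCs than in fed AFCs, where 1.78% and 0.221% of all genes were. For all 9 the starved libraries lay below the fed AFC libraries, as they did for 5.91% of all genes. *Cp15* averaged 1018 ± 199.6 CPM in fed SFCs, 1099 ± 620.4 in starved AFCs and 8002 ± 3792 in fed AFCs, with LFCs of -2.97 (SE 0.50, adjusted p = 0.00836) and -2.86 (SE 0.49, adjusted p = 0.0397). *Cp16*, *Cp18*, *Cp19* and *Cp36* fell by 1.63 to 2.41 on the log2 scale in fed SFCs. Leaving out single libraries left 2 to 5 of the 9 called in fed SFCs and 0 to 4 in starved AFCs. In fed SFCs 2 were left without SFC replicate 2, SFC replicate 3 or fed AFC replicate 3, and in starved AFCs none without SFC replicate 2, starved AFC replicate 2 or 3, or fed AFC replicate 3, or with only the 2 groups fitted. Both comparisons share the fed AFC libraries. The eggshell markers named in the opening were lower in the same groups, with 2 of 8 called in starved AFCs.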

How the data were processed

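TRAP-seq libraries were made with a TruSeq RNA kit (version 2), which does not mark strand. Reads were quantified per transcript by the authors with Salmon 1.1.0 (quasi-mapping with selective alignment and GC-bias correction, per the methods of the study) against BDGP6.32. The authors deposited estimated counts, TPM (not used for any test) and lengths, which Salmon gave per transcript. For the present report, estimated counts of 30179 of 30215 transcripts were matched by identifier to the BDGP6.54 annotation, summed to 14077 genes and rounded. The other 36 transcripts held at most 0.114% of a library.

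Libraries were scaled by TMM and genes filtered by filterByExpr (minimum count 10), which left 10870 genes. All 9 libraries were fitted with 3 group means by edgeR 4.0.16 (quasi-likelihood test, R 4.3.3), with Benjamini-Hochberg adjustment over all genes tested and a threshold of 0.05. The standard error (SE) was taken as the absolute LFC over the root of F. CPM values are TMM-normalized, and per kb means per kb of effective length. DESeq2 1.42.0, limma-voom 3.58.1, other scalings, filters, a replicate block and the removal of libraries were alternatives. The code was tested on simulated data. The study's own design fitted genotype and treatment with DESeq2.

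The members and lists were chosen with earlier results of these data known. From each pathway list the text names the genes called in any comparison (at most 5, by adjusted p) and, where fewer than 3 were called, those of highest TPM up to 3 in all. The transcript test was added after seeing the data. Library depth, of 30551253 to 45910215 estimated reads, limits counting error only, and edgeR's common dispersion between libraries was 0.362.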

Additional observations from a re-analysis of the deposited data

How the results depend on the processing

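The 32 genes had 96 results, each run under 20 alternatives, and 1914 of these 1920 values kept their side of the threshold. As edgeR's main fit called none of the 96 (smallest adjusted p = 0.13), this meant staying uncalled. The count therefore says little about how firm the values are. The sign was not firm. It changed in 105 values of 43 results, 70 of them with a library left out, and none of these had an adjusted p below 0.05 in either fit. The original LFC was at most 0.67 in size, with a median of 0.05. Against fed AFCs, 2 members passed in fed SFCs with DESeq2, and 2 with DESeq2 and length offsets (*lat* and *CycB3* both times). Against starved AFCs 1 member, *Dp*, passed in fed SFCs with each of them. The cause was not tested. Over all genes in fed SFCs against fed AFCs, 325 were called by edgeR, 1064 by DESeq2, 1104 by DESeq2 with length offsets and 85 to 487 with single libraries left out. In starved against fed AFCs the counts were 24 by edgeR, 100 by DESeq2, 97 by DESeq2 with length offsets, 15 with only the 2 groups fitted (fewer samples) and 8 to 23 with single libraries left out. In fed SFCs against starved AFCs they were 241 by edgeR, 891 by DESeq2, 819 by DESeq2 with length offsets and 111 to 383 with single libraries left out.

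With a replicate block, 186, 27 and 163 genes were called in these comparisons and no member. The calls of *asp* (adjusted p = 0.0925) and *mip120* (adjusted p = 0.0825) in fed SFCs against fed AFCs were lost with the block. No pairing by replicate number was seen, as correlations of the deviations of same-numbered libraries ran between -0.53 and 0.385 and those of differently numbered ones between -0.498 and 0.637. With deviations from means of 3 libraries, this check cannot tell whether the numbers marked a shared batch. Without the filter on low counts the median LFC of all genes was -0.28 in fed SFCs against fed AFCs, and it was 0.05 without fed AFC replicate 1. With 3 libraries a group, LFCs of members carried SEs of 0.21 to 0.53. Even without adjustment, changes of less than about 0.46 on the log2 scale could not be told from 0 for any member. After adjustment larger ones could not be either, such as that of *CycB3* in fed SFCs against fed AFCs (LFC 1.09, edgeR adjusted p = 0.131).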
